A study of Mus musculus with 9 samples.

Results

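Bile acid synthesis and its feedback through the farnesoid X receptor were followed in mouse liver RNA through 10 genes: Cyp7a1, Cyp8b1, Cyp27a1, Cyp7b1, Hsd3b7, Amacr, Akr1d1, Slc27a5, Nr0b2 and Nr1h4. They were taken by gene symbol from the 23420 genes of the count tables, and all 10 were among the 13020 genes with enough reads to be tested. The samples were livers of 9 wild-type male C57BL/6 mice (strain label C57/BL6), each sequenced as its own RNA library. The mice ate the soy-free AIN-93G diet with 1 of 3 iron contents, 3 mice per diet: low (2.5 mg iron per kg), sufficient (37.5 mg per kg) or high (1000 mg per kg). Feeding began at 5 weeks of age and lasted 50 days, and livers were harvested at 12 weeks. Hjv knockout mice, which the protocol mentions, are not analysed here. Nothing on the time of day or feeding state at harvest was given in the sources used here.

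Hepatocytes turn cholesterol into bile acids. The classic route starts with Cyp7a1, the cholesterol 7-alpha-hydroxylase that limits its rate, and the alternative route starts with the mitochondrial sterol 27-hydroxylase Cyp27a1. Bile acids that return to the liver bind the nuclear receptor FXR, encoded by Nr1h4, which induces Nr0b2. Nr0b2 encodes SHP, a corepressor without a DNA-binding domain that lowers transcription of Cyp7a1 and Cyp8b1. A parallel signal comes from the ileum, where FXR induces the hormone Fgf15, which acts on hepatocytes through Fgfr4 and its co-receptor Klb.

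The promoters of 3 genes are printed because Cyp8b1 and Akr1d1 had all their high-iron libraries below the other 6 and Nr0b2 carries the feedback. RefSeq (GRCm38.p6) gave a promoter for 6 of the 10 genes, each running from 250 bases before to 50 after the start used there. The Nr1h4 window (chr10:89506609-89506908, minus strand) lay within the gene's span (chr10:89454234-89533585), not at its upstream end. The windows are chr9:121916256-121916555 (minus strand) for Cyp8b1, chr6:37529923-37530222 (plus strand) for Akr1d1 and chr4:133553126-133553425 (plus strand) for Nr0b2. Capitals mark matches, searched on both strands, to the NR5A core CAAGGNCA, the HNF4 core CAAAGTCCA and the E-box CACGTG.
Cyp8b1: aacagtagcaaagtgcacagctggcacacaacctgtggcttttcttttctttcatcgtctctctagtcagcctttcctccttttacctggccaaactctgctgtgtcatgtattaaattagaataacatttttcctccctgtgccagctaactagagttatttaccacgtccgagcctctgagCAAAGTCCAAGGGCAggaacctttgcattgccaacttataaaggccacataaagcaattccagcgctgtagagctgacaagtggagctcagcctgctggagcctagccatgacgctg
Akr1d1: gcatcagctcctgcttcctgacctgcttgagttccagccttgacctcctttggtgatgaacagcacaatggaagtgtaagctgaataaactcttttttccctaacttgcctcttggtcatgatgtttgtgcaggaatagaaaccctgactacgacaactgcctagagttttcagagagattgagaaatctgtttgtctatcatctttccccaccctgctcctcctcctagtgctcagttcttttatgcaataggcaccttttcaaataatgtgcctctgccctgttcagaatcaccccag
Nr0b2: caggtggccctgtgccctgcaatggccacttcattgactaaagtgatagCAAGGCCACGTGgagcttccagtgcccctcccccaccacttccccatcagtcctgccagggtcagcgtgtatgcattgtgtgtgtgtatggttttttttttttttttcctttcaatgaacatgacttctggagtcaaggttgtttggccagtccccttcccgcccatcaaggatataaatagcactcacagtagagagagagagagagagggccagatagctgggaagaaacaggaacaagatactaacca
In Cyp8b1 the HNF4 core runs into an NR5A core and shares letters with it, and in Nr0b2 an NR5A core shares letters with the E-box. Of all 32851 promoters in the table, 6.71% held the NR5A core, 0.475% the HNF4 core and 7.15% the E-box. The DR1 and IR1 motifs, the half-site AGGTCA repeated directly or inverted with a base between, were searched too and are in none of the 6 windows (0.0396% and 0.00913% of all promoters). A match here describes letters and is not a measured binding site.

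Libraries held 21994132 to 33807087 gene reads, and single genes of the set had between 392 and 17070 reads in a library. The precursor of ribosomal RNA, Rn45s, made up 43.7% of gene reads in low-iron replicate 1 and 40.5% in high-iron replicate 12, and 12.5% to 23.8% elsewhere (Wilson 95% intervals at most 0.0415 points wide, counting error only). Libraries also leaned to short or long transcripts, measured by Spearman rho between a gene's deviation and its exon length, across genes. The rho was lowest in low-iron replicate 1 and high-iron replicate 8, at -0.323 in each, and highest in sufficient-iron replicate 6, at 0.294. Hepatocyte markers were abundant in every library, summing to 53429 to 81358 CPM (read counts scaled by library size and TMM). Markers of neutrophils and lymphocytes summed to at most 7.53 CPM. Replicates are named by the number in their title.

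Per kilobase of exon, the genes formed an upper and a lower tier in sufficient-iron livers. Cyp8b1 was the most abundant at 208 ± 12.4 CPM per kb (mean ± SD, n = 3), followed by Slc27a5 at 175 ± 17.2 and Hsd3b7 at 139 ± 14.0. Cyp27a1 stood at 123 ± 21.8 CPM per kb, and its spread overlapped that of Hsd3b7. The lower tier began with Akr1d1 at 46.3 ± 9.31 CPM per kb. Amacr (38.2 ± 4.16), Nr1h4 (33.3 ± 5.33) and Cyp7b1 (31.8 ± 7.86) followed within overlapping spreads. The rate-limiting Cyp7a1, at 23.4 ± 19.5 CPM per kb, and Nr0b2, at 20.5 ± 12.3, were the least abundant and the most variable. In high-iron livers Cyp7a1 was the lowest, at 9.10 ± 2.60 CPM per kb. Exon lengths came from GENCODE M21 and may differ from the models used for counting.

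**Figure D1:**
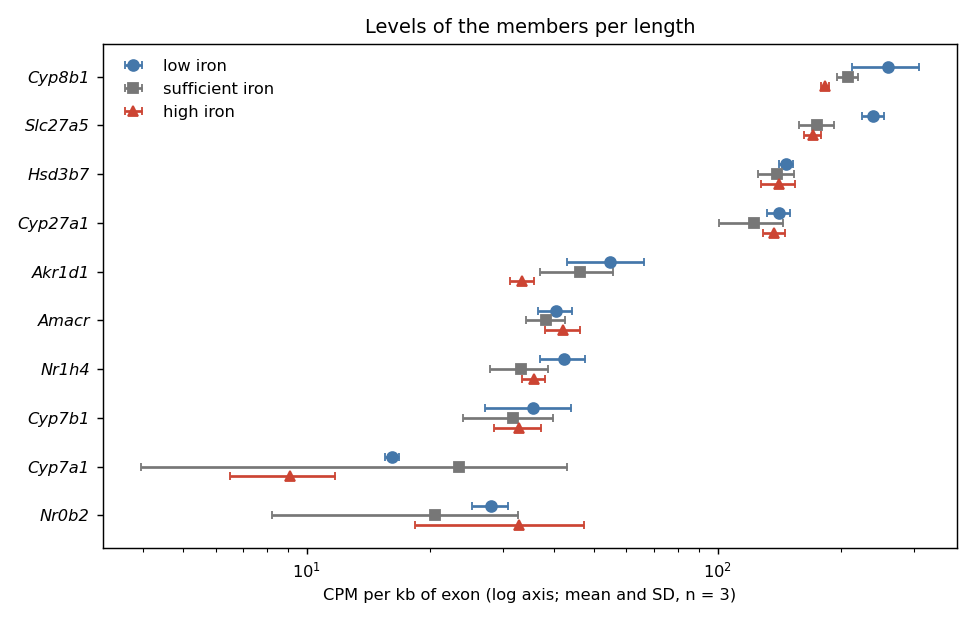
Level of each gene per kilobase of exon (log axis, CPM per kb) in low-, sufficient- and high-iron livers. Points are means and bars are SDs of 3 libraries. Cyp8b1, Slc27a5, Hsd3b7 and Cyp27a1 form the upper tier, and Cyp7a1 is the lowest in high-iron livers.

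None of the 10 genes passed the test in any comparison of diets. Cyp8b1, Akr1d1, Slc27a5 and Cyp7a1 had their 3 high-iron libraries below their 3 low-iron libraries. Cyp27a1, Cyp7b1, Hsd3b7, Amacr, Nr0b2 and Nr1h4 overlapped between the diets in every comparison. In whole livers, fewer hepatocytes and less RNA per hepatocyte cannot be told apart. The threshold was a Benjamini-Hochberg adjusted p under 0.05 over all tested genes in edgeR's quasi-likelihood test, and every adjusted p given without a tool's name is from it.

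**Figure D2:**
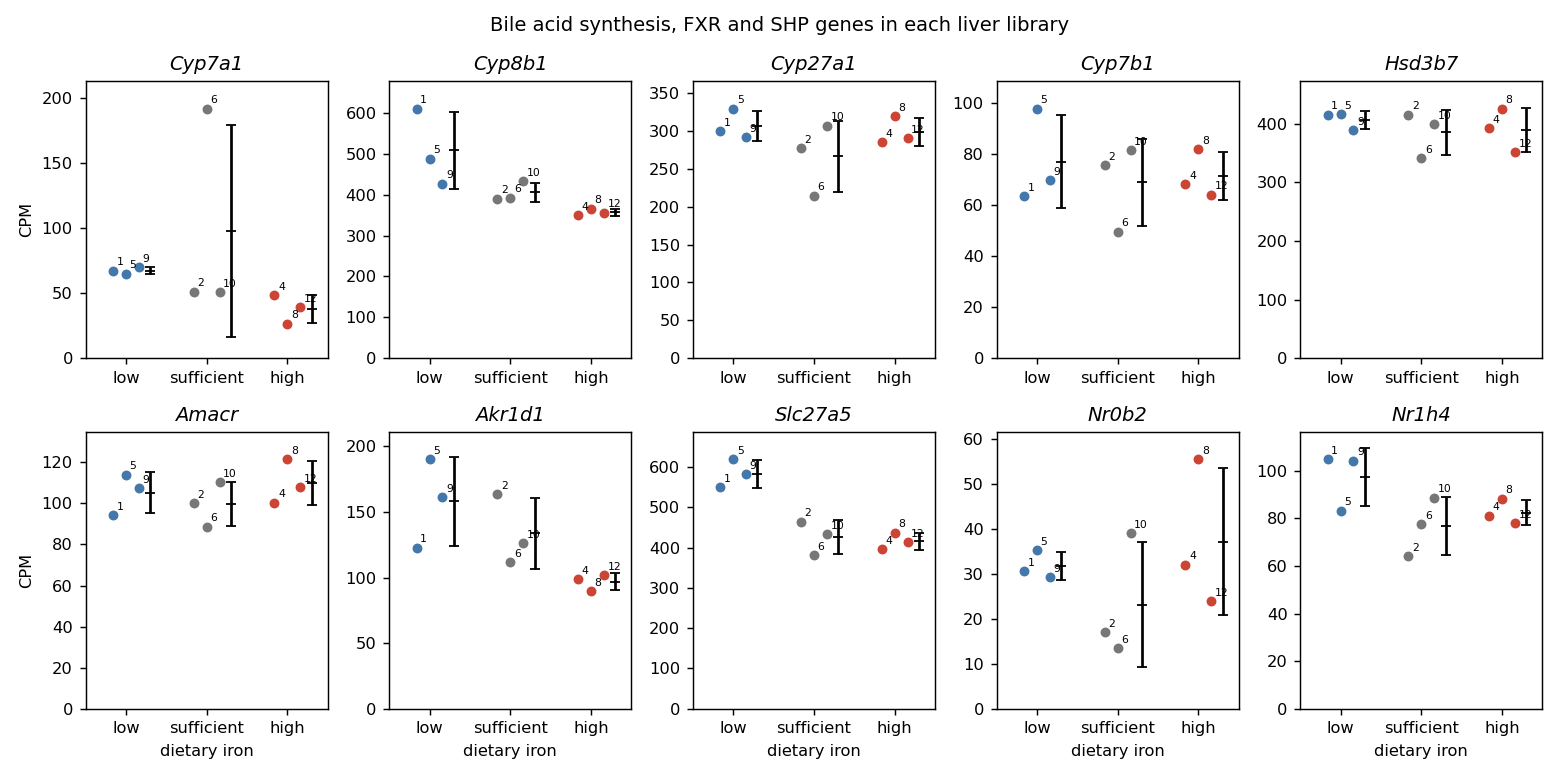
Level of each gene (CPM, axis from 0) in every library by dietary iron. Points are libraries, and the dash and bar are the mean and SD of 3. Cyp7a1 in sufficient-iron replicate 6 reaches 192 CPM, far above the other 8 libraries.

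Cyp7a1 (chr4:6265612-6275633 on GRCm38, GENCODE M21, minus strand) stood at 67.2, 64.9 and 70.0 CPM in low-iron replicates 1, 5 and 9. It stood at 51.2, 192 and 50.6 CPM in sufficient-iron replicates 2, 6 and 10, and at 48.2, 26.6 and 39.2 CPM in high-iron replicates 4, 8 and 12. All 3 high-iron libraries were below the other 6, and sufficient-iron replicate 6 was alone at the top. The log2 fold change of high over sufficient iron was -1.37 ± 0.46 (SE; 95% interval -2.40 to -0.34; edgeR adjusted p = 0.418). Without sufficient-iron replicate 6 it was -0.42 (adjusted p = 0.836), so the size of this difference rested on that library. Low over sufficient iron gave -0.54 (adjusted p = 0.613) and had the other sign without it, 0.40 (adjusted p = 0.835). High over low iron gave -0.83 ± 0.46 (adjusted p = 0.625), and -0.82 (adjusted p = 0.0799) when that library was left out of the shared spread. The biological variation of Cyp7a1 (edgeR's BCV) was 0.384, above that of 96.7% of tested genes.

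Cyp8b1 (chr9:121914356-121916305, minus strand) encodes the sterol 12-alpha-hydroxylase that directs intermediates to cholic acid. It stood at 610.2, 488 and 427 CPM in low-iron replicates 1, 5 and 9, at 390.1, 393 and 433 CPM in sufficient-iron replicates 2, 6 and 10, and at 349.5, 365 and 355 CPM in high-iron replicates 4, 8 and 12. The high-iron libraries were the 3 lowest and lay close together. High over low iron gave a log2 fold change of -0.51 ± 0.14 (95% interval -0.81 to -0.21, adjusted p = 0.165), and DESeq2 called this difference (adjusted p = 0.0170). Low-iron replicate 1, one of the libraries rich in Rn45s, held the highest value, and without it the log2 fold change was -0.35. High over sufficient iron gave -0.18 ± 0.14 (adjusted p = 0.675), and low over sufficient iron gave 0.33 ± 0.14 (adjusted p = 0.446).

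The genes of the alternative route, Cyp27a1 and Cyp7b1, overlapped between the diets in every comparison. Cyp27a1 (chr1:74713574-74737892, plus strand) averaged 307 ± 19.8 CPM in low-iron, 266 ± 47.5 CPM in sufficient-iron and 298 ± 18.4 CPM in high-iron livers (SD, n = 3 each). Its interval for high over low iron was -0.35 to 0.27. Cyp7b1 (chr3:18071950-18243338, minus strand), the oxysterol 7-alpha-hydroxylase that follows Cyp27a1, averaged 76.9 ± 18.2 CPM in low-iron, 68.9 ± 17.0 CPM in sufficient-iron and 71.3 ± 9.31 CPM in high-iron livers. Its interval for high over low iron, -0.58 to 0.35, leaves room for differences of that size. Sufficient-iron replicate 6, the library with the most Cyp7a1, had the lowest value of both genes, 214 CPM for Cyp27a1 and 49.5 CPM for Cyp7b1. Gm23686, on the same strand, overlaps the span of Cyp7b1.

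Of the enzymes that reshape the sterol ring, Hsd3b7 overlapped between all diets and Akr1d1 had its 3 lowest libraries in high iron; neither passed the test. Hsd3b7 (chr7:127800604-127803802, plus strand), the 3-beta-hydroxysteroid dehydrogenase used by both routes, averaged 407 ± 15.6 CPM in low-iron, 385 ± 38.8 CPM in sufficient-iron and 389.6 ± 37.2 CPM in high-iron livers. Its intervals were -0.25 to 0.28 for high over sufficient iron and -0.33 to 0.20 for high over low iron. An antisense gene, 9430064I24Rik, overlaps it, and with the strand setting unknown their reads cannot be told apart. Gm49388, on the same strand as Hsd3b7, overlaps its span as well. Akr1d1 (chr6:37530173-37568815, plus strand) encodes the 5-beta-reductase that gives bile acids their bent ring. It stood at 123, 190.2 and 161 CPM in low-iron replicates 1, 5 and 9, at 164, 112 and 126 CPM in sufficient-iron replicates 2, 6 and 10, and at 98.7, 89.5 and 102 CPM in high-iron replicates 4, 8 and 12. Its 3 high-iron libraries were the lowest of the 9. High over low iron gave -0.71 ± 0.18 (95% interval -1.11 to -0.31, adjusted p = 0.137), and high over sufficient iron gave -0.47 ± 0.18 (adjusted p = 0.484). Between high and low iron Akr1d1 passed without low-iron replicate 1 (-0.85, adjusted p = 0.0417) and in DESeq2 (adjusted p = 0.0129). Gm7463, on the same strand, overlaps the span of Akr1d1, and how shared reads were counted was not given.

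Of the genes of the side chain and its activation, Slc27a5 had no overlap between low iron and the other diets, and Amacr overlapped in every comparison. Neither passed the test. Slc27a5 (chr7:12988346-12998192, minus strand) encodes the bile acyl-CoA synthetase, which activates returning bile acids for conjugation. It stood at 549.7, 619 and 582 CPM in low-iron replicates 1, 5 and 9, at 464, 381 and 433 CPM in sufficient-iron replicates 2, 6 and 10, and at 396, 437 and 414 CPM in high-iron replicates 4, 8 and 12. The 3 low-iron libraries were above the other 6, which overlapped. Low over sufficient iron gave a log2 fold change of 0.45 ± 0.11 (95% interval 0.20 to 0.71, adjusted p = 0.446), rank 44 by p among all tested genes. High over low iron gave -0.49 ± 0.11 (adjusted p = 0.105), and the interval of high over sufficient iron was -0.29 to 0.22. DESeq2 called Slc27a5 between low and sufficient iron (adjusted p = 0.00216) and between high and low iron (0.000641). Amacr (chr15:10981756-10996626, plus strand), the racemase that readies the side chain for peroxisomal shortening, averaged 105 ± 10.1 CPM in low-iron, 99.7 ± 10.9 CPM in sufficient-iron and 109.8 ± 10.7 CPM in high-iron livers.

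The receptor gene varied less between mice than its target. Nr1h4 (chr10:89454234-89533585, minus strand) stood at 105, 83.1 and 104 CPM in low-iron replicates 1, 5 and 9, at 64.1, 77.5 and 88.6 CPM in sufficient-iron replicates 2, 6 and 10, and at 81.1, 88.1 and 77.9 CPM in high-iron replicates 4, 8 and 12. Its largest difference was low over sufficient iron, 0.34 ± 0.14 (adjusted p = 0.446), with overlapping groups. Nr0b2 (chr4:133553376-133556536, plus strand) stood at 30.6, 35.3 and 29.3 CPM in low-iron replicates 1, 5 and 9, at 17.0, 13.5 and 39.1 CPM in sufficient-iron replicates 2, 6 and 10, and at 32.0, 55.5 and 23.9 CPM in high-iron replicates 4, 8 and 12. The low-iron mice were alike, while the other diets each spread more than 2-fold between mice. High over sufficient iron gave 0.68 ± 0.39 (95% interval -0.18 to 1.55, adjusted p = 0.609), and the BCV of 0.331 exceeded that of 94.3% of tested genes.

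**Figure D3:**
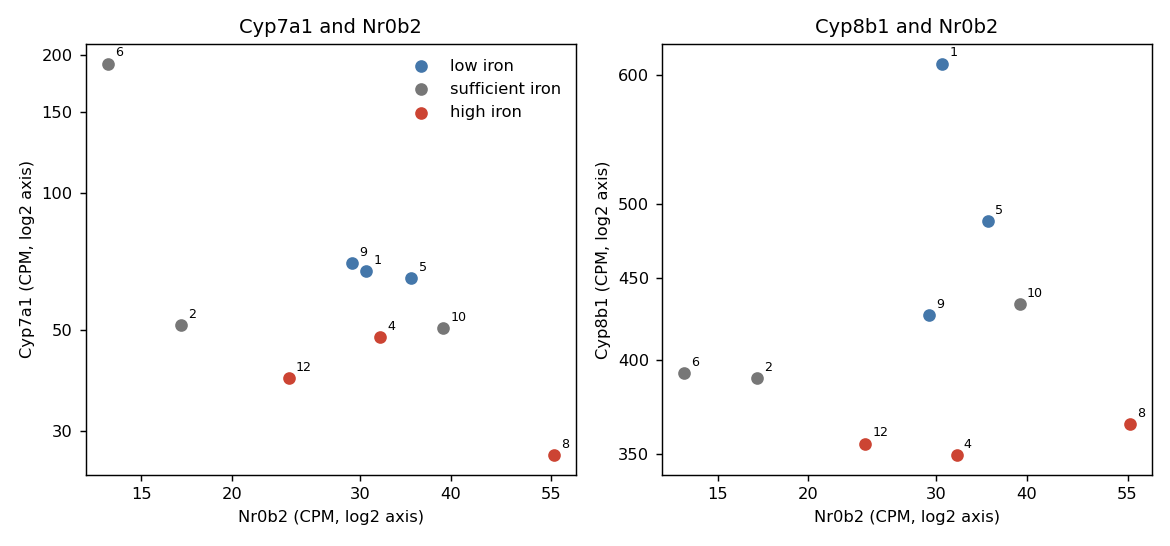
Cyp7a1 and Cyp8b1 against Nr0b2 in the 9 libraries (CPM, log axes), labelled by title number. Sufficient-iron 6 has the highest Cyp7a1 (192 CPM) and the lowest Nr0b2 (13.5 CPM), and high-iron 8 has the lowest Cyp7a1 (26.6 CPM) and the highest Nr0b2 (55.5 CPM).

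Mouse by mouse, Nr0b2 and Cyp7a1 took opposite extremes. Sufficient-iron replicate 6 combined the highest Cyp7a1 with the lowest Nr0b2, and high-iron replicate 8 combined the lowest Cyp7a1 with the highest Nr0b2. Between these, Nr0b2 was 17.0 CPM in sufficient-iron replicate 2 and 39.1 CPM in replicate 10 at nearly equal Cyp7a1 (51.2 and 50.6 CPM). Cyp8b1 did not take these extremes, at 393 CPM in sufficient-iron replicate 6 and 365 CPM in high-iron replicate 8. These libraries leaned to opposite transcript lengths, with rho of 0.294 in sufficient-iron replicate 6 and -0.323 in high-iron replicate 8. Exon length is 4174 bp for Cyp7a1 and 1132 bp for Nr0b2. Low-iron replicate 1, also at -0.323, had 67.2 CPM of Cyp7a1 and 30.6 CPM of Nr0b2. Clock genes also differed between mice of a diet. Dbp, a clock output gene named here after its values were seen, had 5.38, 7.75 and 32.7 CPM in low-iron replicates 1, 5 and 9, 5.39, 5.66 and 27.1 CPM in sufficient-iron replicates 2, 6 and 10, and 7.69, 30.8 and 45.5 CPM in high-iron replicates 4, 8 and 12. Dbp was high in the 4 libraries with title numbers of 8 or more and low in the 5 others, and 2 of 3 high-iron libraries were among the 4. Of the 11 tested clock genes 0 passed in any comparison. Cry1, a clock repressor, had the lowest p of them over the diets, and averaged 3.21 ± 0.609 CPM in high-iron livers and 6.13 ± 2.31 CPM in sufficient-iron livers (-0.92, adjusted p = 0.438). After it came Arntl, Per3 and Clock, with 3-diet adjusted p values of 0.566, 0.585 and 0.598. The parts of the clock genes and of the length lean in the Cyp7a1 and Nr0b2 values were not tested.

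**Figure D4:**
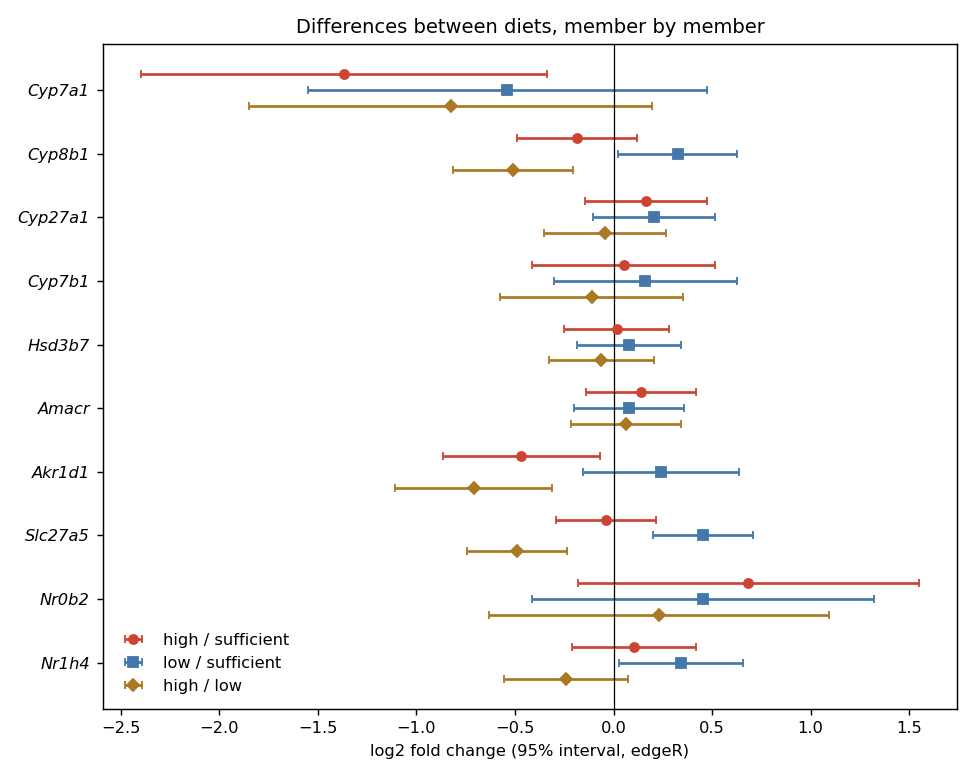
Log2 fold changes of the 10 genes for high over sufficient, low over sufficient and high over low iron, with 95% intervals from edgeR fitted to all 9 libraries. The intervals of Cyp8b1, Akr1d1 and Slc27a5 for high over low iron lie below 0, and Cyp7a1 and Nr0b2 have the widest intervals.

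For high over low iron 0 of the 10 genes passed, against 0.507% of all tested genes. Cyp8b1, Akr1d1 and Slc27a5 had an unadjusted p under 0.05, 3 genes that were lower in high iron, where 5.44% of tested genes met that rule. With Cyp7a1 they were the 4 whose groups did not overlap, all lower, against 8.15% of tested genes. The median log2 fold change of the 10 was -0.18, beside -0.00635 over all tested genes. Hepatocyte markers had negative values for 10 of 10 genes (median -0.36), and their sum was 53429 to 66033 CPM in high-iron livers against 71032 to 81358 CPM in low-iron livers. By the same rules, 4 of the 10 hepatocyte markers had an unadjusted p under 0.05 and 5 did not overlap, all lower in high iron. Kupffer cell markers had positive values for 10 of 10 genes (median 0.21), with sums of 244 to 304 CPM in high-iron and 127 to 289.5 CPM in low-iron livers. Cholangiocyte markers had positive values for 6 of 6 tested genes (median 0.85), with sums of 33.3 to 71.4 CPM in high-iron and 28.1 to 36.6 CPM in low-iron livers. Stellate cell markers had positive values for 7 of 8 genes (median 0.25) and endothelial markers for 5 of 8 (median 0.15). The part of these lists in the differences was not tested. Of the 10, those with overlapping groups had log2 fold changes of -0.24 (Nr1h4), -0.11 (Cyp7b1), -0.0627 (Hsd3b7), -0.0417 (Cyp27a1), 0.0617 (Amacr) and 0.23 (Nr0b2).

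For high over sufficient iron 0 of the 10 passed (0.215% of all tested genes). Cyp7a1 and Akr1d1 were the 2 with an unadjusted p under 0.05, both lower in high iron (5.12% of tested genes). With Cyp8b1 they made 3 genes whose groups did not overlap in that direction (8.85%). The median of the 10 was 0.0337, beside -0.0105 for all tested genes and -0.00986 for the hepatocyte markers. Of the 10 hepatocyte markers, 1 had an unadjusted p under 0.05 and 1 had no overlap, both in the lower direction. Kupffer cell markers had negative values for 10 of 10 genes (median -0.44), with sums of 244 to 304 CPM in high-iron and 288 to 452 CPM in sufficient-iron livers. Negative values were also found for 7 of 8 stellate cell markers (median -0.19) and 6 of 8 endothelial markers (-0.12), and positive ones for 5 of 6 cholangiocyte markers (0.17). For low over sufficient iron 0 of the 10 passed, as did 0% of all tested genes, with 0 calls in limma-voom too and 105 in DESeq2. There 1458 genes (11.2%) had an unadjusted p under 0.05. Among them were Cyp8b1, Slc27a5 and Nr1h4, 3 genes higher in low iron (5.79% of tested genes in that direction). Slc27a5 was the 1 gene without overlap (8.81%). The median of the 10 was 0.22, beside -0.00403 for all tested genes and 0.26 for the hepatocyte markers, of which 9 of 10 had positive values. Of the 10 hepatocyte markers, 3 had an unadjusted p under 0.05 and 5 had no overlap, all higher in low iron. Kupffer cell markers had negative values for 10 of 10 genes here (median -0.68), with sums of 127 to 289.5 CPM in low-iron and 288 to 452 CPM in sufficient-iron livers. Of these 10 markers, 8 had an unadjusted p under 0.05 and 0 passed, beside the 11.2% of tested genes under 0.05. Cholangiocyte markers had negative values for 5 of 6 tested genes (median -0.67), 4 of them with an unadjusted p under 0.05 and 0 past the threshold, and their sums of 28.1 to 36.6 CPM in low-iron livers lay below the 40.3 to 73.1 CPM in sufficient-iron livers. Endothelial markers had negative values for 8 of 8 genes (median -0.29) and stellate cell markers for 7 of 8 (median -0.34). The part of these lists in the differences was not tested. These comparisons share libraries and are not independent.

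Over all 3 diets the lowest p was that of Slc27a5 (adjusted p = 0.149), followed by Akr1d1 (0.268), Cyp8b1 (0.292) and Cyp7a1 (0.453). Of the 10, 0 passed, against 0.215% of tested genes. With the log10 of dietary iron as a number, the log2 slope per 10-fold more iron was -0.27 ± 0.0688 for Akr1d1 (adjusted p = 0.144), -0.19 ± 0.0529 for Cyp8b1 (0.189) and -0.18 ± 0.0522 for Slc27a5 (0.218). In that fit 0 of the 10 passed, against 0.307% of tested genes.

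Ratios between genes within a library do not depend on how libraries were scaled. Slc27a5 had 1.32, 1.49 and 1.50 reads per read of Hsd3b7 in low-iron replicates 1, 5 and 9, 1.12, 1.12 and 1.08 reads in sufficient-iron replicates 2, 6 and 10, and 1.01, 1.03 and 1.18 reads in high-iron replicates 4, 8 and 12. The low-iron libraries were again above the other 6. Akr1d1 had 0.296 to 0.457 reads per read of Hsd3b7 in low-iron, 0.316 to 0.395 in sufficient-iron and 0.210 to 0.291 in high-iron libraries. Cyp8b1 had 1.46 to 2.04 reads per read of Cyp27a1 in low-iron, 1.41 to 1.83 in sufficient-iron and 1.14 to 1.23 in high-iron libraries. In these ratios of Akr1d1 to Hsd3b7 and Cyp8b1 to Cyp27a1 the high-iron libraries were the 3 lowest. Set against Hsd3b7, Cyp8b1 had 1.47, 1.17 and 1.10 reads in low-iron replicates 1, 5 and 9, 0.940, 1.15 and 1.08 reads in sufficient-iron replicates 2, 6 and 10, and 0.892, 0.858 and 1.01 reads in high-iron replicates 4, 8 and 12. High iron then lay below low iron but overlapped sufficient iron, so the order of Cyp8b1 depended on the gene it was set against. Cyp8b1 per read of Cyp7a1 overlapped in every comparison, at 6.10 to 9.07 in low-iron, 2.05 to 8.57 in sufficient-iron and 7.25 to 13.7 in high-iron libraries. Cyp7a1 per read of Cyp7b1, the classic against the alternative 7-alpha-hydroxylase, overlapped between the diets, at 0.664 to 1.06 in low-iron, 0.620 to 3.87 in sufficient-iron and 0.325 to 0.709 in high-iron libraries. Both ratios with Cyp7a1 had their extremes in sufficient-iron replicate 6 and high-iron replicate 8, whose length rho was 0.294 and -0.323. Exon length is 4174 bp for Cyp7a1, 2166 bp for Cyp7b1 and 1950 bp for Cyp8b1. A ratio does not remove such a lean, and its part in these values was not tested. All ratios here are descriptions without a test.

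Of the other genes of bile acid synthesis and conjugation, 14 of 15 were tested, and for high over low iron Cyp2a12 was the 1 to pass. Cyp2a12, which in mice adds back the 7-alpha-hydroxyl group of secondary bile acids, fell to 163 ± 16.1 CPM in high-iron livers, against 266 ± 19.2 CPM in low-iron livers (-0.71 ± 0.11, adjusted p = 0.0313). It averaged 194 ± 6.75 CPM in sufficient-iron livers and passed in 12 of 20 alternatives. The call was lost without low-iron replicate 5 or 9 or any high-iron library (adjusted p up to 0.132). Whether reads of related P450 genes affect its count was not tested. Scp2, the gene of a sterol carrier and peroxisomal thiolase, averaged 2767 ± 79.8 CPM in high-iron livers and 3858 ± 533 CPM in low-iron livers (-0.48, adjusted p = 0.181). The cholesterol 24-hydroxylase gene Cyp46a1 averaged 2.02 ± 0.401 CPM in high-iron livers and 4.54 ± 1.91 CPM in low-iron livers (-1.16, adjusted p = 0.248). Abcd3, a peroxisomal importer of bile acid intermediates, averaged 938 ± 54.2 CPM in high-iron livers and 692 ± 51.8 CPM in sufficient-iron livers (0.44, adjusted p = 0.426). For high over sufficient and for low over sufficient iron 0 of the 14 passed.

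Of 16 regulators 15 were tested and 0 passed in any comparison. Fgfr4 had 18.8, 19.9 and 21.2 CPM in high-iron replicates 4, 8 and 12 and 24.8, 29.5 and 25.4 CPM in sufficient-iron replicates 2, 6 and 10 (-0.41, adjusted p = 0.418). The high-iron libraries were below the sufficient-iron ones. Its co-receptor Klb averaged 29.1 ± 3.63 CPM in low-iron, 26.0 ± 3.64 CPM in sufficient-iron and 26.9 ± 0.809 CPM in high-iron livers. Nr5a2, the LRH-1 receptor gene through which SHP acts, averaged 42.0 ± 11.8 CPM in low-iron, 43.7 ± 2.14 CPM in sufficient-iron and 40.5 ± 1.37 CPM in high-iron livers. Fgf15, an ileal hormone gene, had 0 reads in all 9 libraries, which allows up to 3 reads in each. The cytokine gene Tgfb1 averaged 7.69 ± 1.41 CPM in high-iron livers and 5.49 ± 1.20 CPM in low-iron livers (0.47, adjusted p = 0.482). The xenobiotic receptor genes Nr1i3 and Nr1i2 had 3-diet adjusted p values of 0.540 and 0.569.

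**Figure D5:**
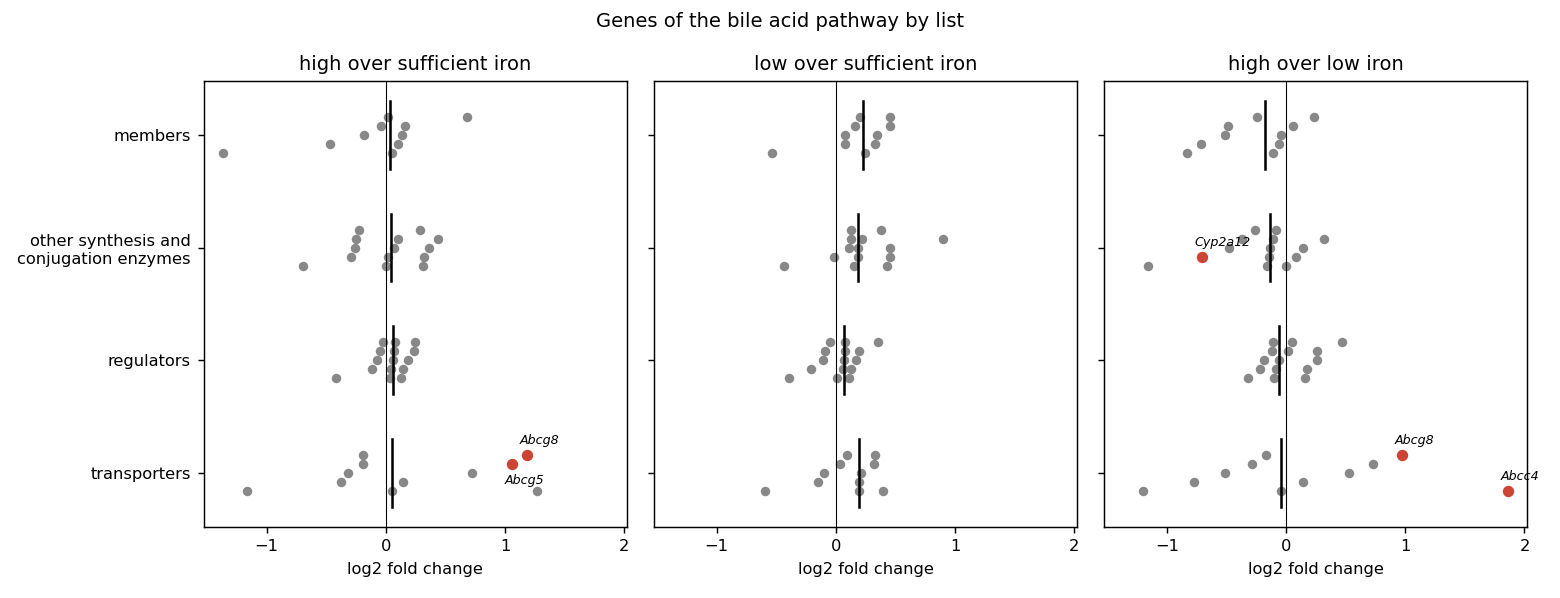
Log2 fold changes of the tested genes of the pathway lists in 3 comparisons, with each list's median as a black line and genes past the adjusted p threshold named. None of the 10 genes is past it, and Abcg5 and Abcg8 are for high over sufficient iron.

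Of 13 transport genes 11 were tested; 2 rose for high over sufficient iron and 2 for high over low iron. Abcg8, which pairs with Abcg5 as the canalicular sterol exporter, rose to 128 ± 18.5 CPM on high iron, against 56.3 ± 12.2 CPM on sufficient iron (1.19, adjusted p = 0.0331) and 65.1 ± 5.80 CPM on low iron (0.97, 0.0339). Abcg5 rose to 85.6 ± 16.7 CPM on high iron, against 41.2 ± 5.89 CPM on sufficient iron (1.06, adjusted p = 0.0341). For high over sufficient iron, Abcg8 passed in 13 and Abcg5 in 11 of 20 alternatives. Abcc4, a basolateral exporter gene, rose to 8.41 ± 1.79 CPM in high-iron livers, against 2.25 ± 0.691 CPM in low-iron livers (1.86, adjusted p = 0.0313), and passed in 13 alternatives. Abcc3, a further basolateral exporter gene, averaged 297 ± 16.2 CPM in high-iron livers and 180.1 ± 26.5 CPM in sufficient-iron livers (0.72, adjusted p = 0.0580). For high over sufficient iron the call of Abcg8 was lost without sufficient-iron replicate 2 or 6, low-iron replicate 9 or any high-iron library, up to an adjusted p of 0.194 without high-iron replicate 8. The call of Abcg5 was lost without any single library but low-iron replicate 1 (up to 0.190). For high over low iron Abcg8 lost its call without any low- or high-iron library. Its adjusted p was 0.127 without high-iron replicate 12 and at most 0.151 over the 20 alternatives, other tools included. Abcc4 lost its call without low-iron replicate 5 or 9 or any high-iron library (up to 0.132).

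The genes most like 4 of the 10 were found by Pearson correlation of log2 CPM over the 9 libraries, among 10925 candidates. They share libraries, depth and diet, and the correlations are descriptions only. Cyp7a1 was most like Dusp3 (0.969), Pparg (0.953) and Fam83a (0.949). Each peaked in sufficient-iron replicate 6, where Fam83a had 4.12 CPM, against at most 1.37 CPM elsewhere. Cyp8b1 was most like Spc24 (0.962), Lgr5 (0.946) and Smarcc2 (0.945). Lgr5, a Wnt-pathway receptor gene, was highest in low-iron replicate 1, at 9.28 CPM, as Cyp8b1 was. Cyp7b1 was most like Atg13 (0.974), Zbtb17 (0.955) and Carhsp1 (0.925). Nr0b2 was most like Stk25 (0.959), Mtch1 (0.934) and Foxa2 (0.930). Foxa2, a hepatocyte transcription factor gene, had its extremes in the same libraries as Nr0b2, 21.3 CPM in high-iron replicate 8 and 13.0 CPM in sufficient-iron replicate 6.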

How the data were processed

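The deposited tables, 1 per library, hold raw counts of reads per gene symbol made by the authors, then 5 category entries. Builds mm10 and mm9 and FastQC appear without roles, per the submitters' processing notes; aligner, counter and strand setting were not given in the sources used here. Per the labels' protocols, RNA came from RNeasy columns and TruSeq libraries were sequenced. Reads outside genes (13.4% to 25.9% of uniquely aligned reads), ambiguous reads (0.477% to 0.917%) and non-unique alignments stayed out of library sizes and tests.

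In R 4.3.3, edgeR 4.0.16 was run on the counts: filterByExpr left 13020 of 23420 genes, TMM scaled libraries, and a robust quasi-likelihood model with diet as its term used all 9 libraries, with Benjamini-Hochberg adjustment over the tested genes. SE was worked out from fold change and F. Log2 CPM for correlations used a prior count of 2. DESeq2 1.42.0, limma-voom (limma 3.58.1), other filters and scalings, and left-out libraries were alternatives. The protocol counts 3 mice per diet, so p-values measure the spread between these mice.

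The genes and lists were chosen with earlier results of these data known. Named were all 10 genes, the 4 lowest 3-diet p of each pathway and clock list, the partners of the feedback loop, and the 3 genes most like 4 of the 10 (mean of at least 1 CPM, predicted models left out). Positions and exon lengths (94.0% of tested genes) came from GENCODE M21, since the tables hold no coordinates.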

Additional observations from a re-analysis of the deposited data

How the results depend on the processing

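Of all tested genes, 28 passed for high over sufficient, 0 for low over sufficient and 66 for high over low iron, 28 over the 3 diets and 40 in the trend. With DESeq2 they were 218, 105, 365, 413 and 313, and 0, 1, 3, 3 and 3 of the 10 genes. Without low-iron replicate 1 and sufficient-iron replicate 6 (added after seeing the data) they were 63, 1, 288, 192 and 257, and 0, 0, 2, 1 and 1 of the 10. Without both Rn45s-rich libraries they were 17, 1, 31, 15 and 3. With no filter, high over sufficient gave 45 and the 3 diets 52. The diets share no replicate numbers, so the labels pair no mice. A fit with neighbouring title numbers as a block (1, 2 and 4; 5, 6 and 8; 9, 10 and 12), added after seeing the data, gave 32, 0, 40, 19 and 14 genes and 0 of the 10 in each. Leaving out 1 library at a time gave 0 to 56, 0 to 1, 0 to 112, 0 to 68 and 0 to 96 genes, with 0 for high over sufficient without high-iron replicate 4 or 8, and 0 to 1 of the 10 for high over low and in the trend.

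For high over sufficient iron, log2 fold changes that took either sign as single libraries were left out ran from -0.14 to 0.18 for Cyp7b1, from -0.0654 to 0.0844 for Hsd3b7, from -0.11 to 0.0302 for Slc27a5, from -0.0102 to 0.21 for Nr1h4. Without low-iron 1 and sufficient-iron 6 the sign also turned, to -0.14 for Cyp7b1, -0.0644 for Hsd3b7. For low over sufficient iron, log2 fold changes that took either sign as single libraries were left out ran from -0.87 to 0.40 for Cyp7a1, from -0.0471 to 0.29 for Cyp7b1, from -0.00567 to 0.14 for Hsd3b7, from -0.00434 to 0.15 for Amacr. Without low-iron 1 and sufficient-iron 6 the sign also turned, to 0.41 for Cyp7a1, -0.0163 for Hsd3b7. For high over low iron, log2 fold changes that took either sign as single libraries were left out ran from -0.0883 to 0.0120 for Cyp27a1, from -0.22 to 0.10 for Cyp7b1, from -0.13 to 0.0130 for Hsd3b7, from -0.0112 to 0.12 for Amacr, from -0.17 to 0.47 for Nr0b2. Without both Rn45s-rich libraries the sign also turned, to 0.0164 for Hsd3b7, -0.00288 for Amacr. Without low-iron 1 and sufficient-iron 6 the sign also turned, to -0.0114 for Amacr. The causes were not tested. Scaling by DESeq2 size factors or upper quartile, or without Rn45s and Lars2, reversed none of the 10. The fewest reads of the 10 genes in a library were 392, for Nr0b2, and with 3 mice per diet the number of mice limits the precision.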

Other observations

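Slc10a2, the apical sodium-dependent bile acid transporter gene known from ileum and bile ducts, was on the list of intestine markers and is named after its values were seen. It had 7.86, 4.31 and 6.04 CPM in high-iron replicates 4, 8 and 12 and 14.7, 26.0 and 13.9 CPM in sufficient-iron replicates 2, 6 and 10. The low-iron libraries held 12.9, 12.8 and 13.8 CPM. All 3 high-iron libraries were below the other 6, and sufficient-iron replicate 6, the library with the most Cyp7a1, was the highest. The log2 fold change of high over sufficient iron was -1.59 ± 0.27 (SE), with an edgeR adjusted p of 0.0527. Fabp6 and Vil1 of the same list had at most 1 and 9 reads in a library. The cholangiocyte marker Krt19 had 0.755 to 1.04 CPM in high-iron livers and 0.328 to 0.855 CPM in sufficient-iron livers.

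Cyp39a1, an oxysterol 7-alpha-hydroxylase gene also named after its values were seen, was highest in sufficient-iron replicate 6 as well. It had 11.1, 8.40 and 10.9 CPM in high-iron replicates 4, 8 and 12 and 12.6, 23.9 and 12.6 CPM in sufficient-iron replicates 2, 6 and 10 (-0.70, edgeR adjusted p = 0.456).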
